A study of Mus musculus with 18 samples.

Results

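The immune cells of the mouse urinary bladder were compared between older and younger ages. Immune cells were taken from the 5 whole-bladder single-cell tables by a fixed rule: at least 500 unique molecular identifiers (UMIs, each a tag for 1 captured RNA molecule), at least 1 UMI of Ptprc, and less than 0.5% of UMIs from Krt5, Krt7, Krt8, Krt18, Krt19, Col1a1, Col1a2 and Col3a1 together. Ptprc encodes CD45, the surface phosphatase of all white blood cells, while the keratin and collagen genes mark urothelial and stromal cells. The rule kept 879 of 22726 barcodes. All mice were C57BL/6. The older group held 2 libraries, 1 from 3 male mice of 22 months and 1 from 2 female and 2 male mice of 24 months. The younger group held 3 libraries, 1 from 3 male mice of 3 months and 2 at 12 months, each from 2 female and 2 male mice. The series also holds nuclei, sections and bulk RNA of the bladder, which were not used here.

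The bladder wall carries resident macrophages, dendritic cells, T cells, natural killer (NK) cells and B cells beneath and within the urothelium, where they meet bacteria that ascend from the urethra. Macrophages engulf debris and microbes, and those that take up much lipid or cell debris switch on Trem2, Apoe and lysosomal genes. Monocytes arrive from blood and turn into macrophages or dendritic-like cells. In ageing mouse bladders, lymphoid clusters with B and plasma cells are a known feature of the female mucosa.

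The libraries fell into 2 table formats that went with sex. Barcodes of the 22- and 3-month male libraries had 14 bases and those of the mixed-sex libraries 16. Age was therefore compared within each format, as 22 against 3 months and as 24 against 12 months, and sex and format cannot be told apart. Mice were pooled within each library, and nothing in the labels says that the 12-month libraries came from separate mice, so p-values measure the spread between these libraries. Summed immune UMIs ran from 273249 at 3 months to 1513625 in the first 12-month library. Median UMIs per immune cell were 2753 at 22 months, 1856 at 3 months, 6472 and 8094 at 12 months and 6367 at 24 months. Xist, the transcript of the inactive X chromosome, had 0 UMIs in both male libraries and 250 to 894 in the others. Ribosomal protein genes took 87238 and 60296 CPM (UMIs scaled to a common total per library, then by TMM) of the immune sums in the male libraries of 22 and 3 months, and 264495 to 285434 CPM in the mixed-sex libraries. No barcode was that of an immune cell in 2 libraries. The male libraries shared 64 barcodes, and the pairs of mixed-sex libraries shared 1, 12 and 6.

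The Ptprc rule reached a different part of the white blood cells in each format. Among cells with a UMI of at least 3 of the 5 pan-leukocyte genes Cd52, Coro1a, Laptm5, Tyrobp and Cd53, it kept 30.4% at 22 months and 20.5% at 3 months. In the mixed-sex libraries it kept 77.6% and 89.6% at 12 months and 67.9% at 24 months. Of the 879 cells, 466 carried exactly 1 Ptprc UMI. At the keratin and collagen limit, 15 kept cells had a share of 0.4 to 0.5% and 15 left out had 0.5 to 0.6%.

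The share of immune cells had opposite age differences in the 2 formats. It was 3.50% of barcodes at 22 months and 2.12% at 3 months, with exact 95% Clopper-Pearson intervals of 3.13 to 3.90% and 1.78 to 2.50%. In the mixed-sex libraries it was 5.61% (4.84 to 6.47%) at 24 months against 6.05% (5.23 to 6.96%) and 6.07% (4.69 to 7.72%) at 12 months. These intervals cover counting error only and overlapped among the mixed-sex libraries. With every cell thinned to 1000 UMIs, which left out 386 and 1024 shallower barcodes of the male libraries and none of the others, the shares were 1.68% at 22 months and 1.18% at 3 months. The thinned shares of the mixed-sex libraries were 1.95% at 24 months and 1.79% and 1.86% at 12 months, so that each older library then lay above its younger ones. Those mixed-sex shares rested on 63 immune cells at 24 months and on 54 and 19 at 12 months. Counted by the pan-leukocyte genes in place of Ptprc, the shares were 10.96% at 22 months and 8.12% at 3 months, and 7.82% at 24 months against 7.54% and 6.56% at 12 months, again above in both formats. Here the mixed-sex counts were 252 cells at 24 months and 228 and 67 at 12 months. No interval was computed for the thinned or the pan-leukocyte shares, so their differences were not set against counting error.

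**Figure D1:**
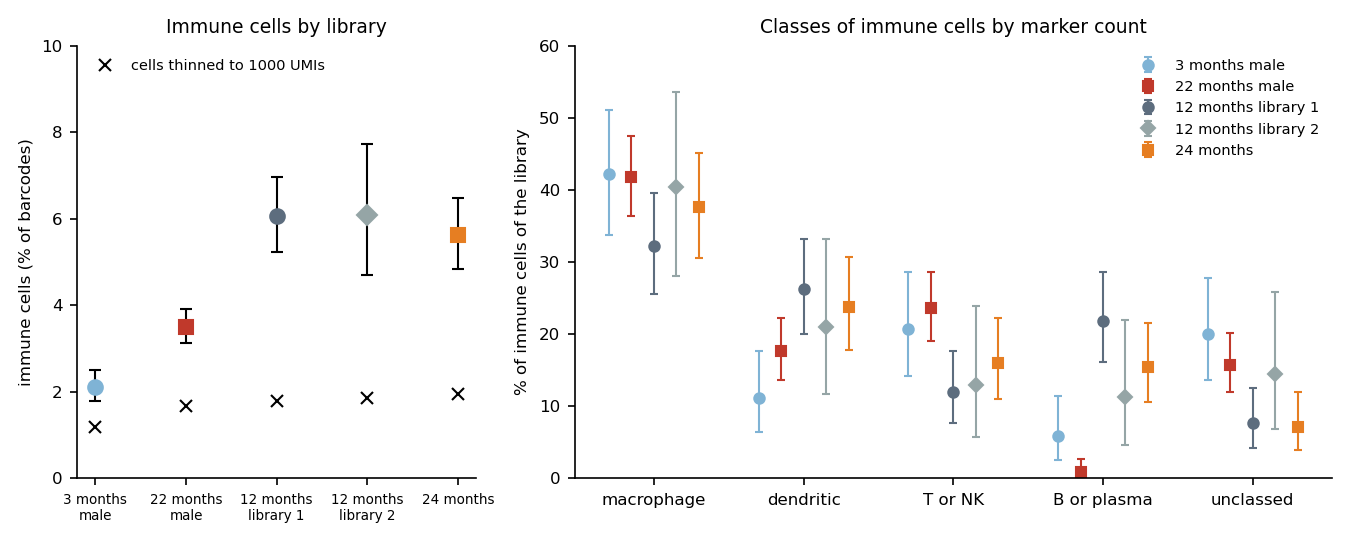
Left, immune cells as a percentage of the barcodes of each library, with exact 95% intervals, and crosses for the same share after thinning to 1000 UMIs. Right, each marker class as a percentage of the library's immune cells, with exact 95% intervals. The T or NK share of each older library (squares) lies above that of its younger libraries, while intervals overlap.

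Each cell was given the class with most detected markers, with at least 2 needed and ties left unclassed. Lists held 10 genes each, and the macrophage class (macrophage and monocyte), the T or NK class and the B or plasma class each joined a pair of lists. Of the 10 genes, 8 of the T list and 9 each of the B and plasma lists were common to the 5 tables. A marker was counted wherever a table held it, and the part of this in the class shares was not tested. The classing gave 342 macrophage-class cells, 175 dendritic, 162 T or NK, 86 B or plasma, 1 mast and 0 neutrophil cells, and left 113 unclassed. Defining markers were checked in the summed immune cells. C1qa and C1qb, subunits of complement C1q made by macrophages, had at least 236 UMIs in every library. Cd3e and Cd3d, chains of the T cell receptor complex, had at least 25 UMIs in every library. S100a8 and S100a9, calprotectin subunits that define neutrophils, had 0 to 3 UMIs per library. The dendritic class was the least separate, since 79 of its 175 cells led by a single marker, against 60 of 342 macrophage, 8 of 162 T or NK and 8 of 86 B or plasma cells. At 3 months 11 of its 15 cells led by a single marker. Its cells held a median of 3 dendritic markers and 2 of the macrophage or the monocyte list, whichever had more.

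The macrophage class made up 41.8% of immune cells at 22 months and 42.2% at 3 months, and 37.6% at 24 months against 32.2% and 40.3% at 12 months. The dendritic class made up 17.6% at 22 months and 11.1% at 3 months, and 23.8% at 24 months against 26.2% and 21.0% at 12 months. The T or NK class made up 23.6% at 22 months and 20.7% at 3 months, and 16.02% at 24 months against 12.0% and 12.9% at 12 months. Only the T or NK share was higher in the older library of both formats, by 3.20 percentage points in the mean of the formats. Its exact two-sided permutation p was 0.167, the smallest that the 6 arrangements of 5 libraries can give. The mean difference was 6.78 points in cells of at least 1000 UMIs and 11.2 after thinning to 1000 UMIs, with exact permutation p of 0.167 and 0.333. After thinning the male libraries differed by 17.2 points and the mixed-sex libraries by 5.21. The T or NK share did not lie above in both formats under 3 alternatives. With keratins and collagens under 0.2% it was 21.1% at 22 months and 21.9% at 3 months, a mean difference of 0.67 points with an exact permutation p of 0.667. With 2 Ptprc UMIs it was 15.5% at 24 months and 15.6% in the second 12-month library, and by pan-leukocyte genes 14.3% and 14.9%. The B or plasma class made up 0.943% at 22 months (3 cells) and 5.93% at 3 months, and 15.5% at 24 months against 21.9% and 11.3% at 12 months. Differences of the macrophage, dendritic and B or plasma shares were 0.44, 3.33 and -3.04 points, with exact permutation p of 1, 0.5 and 0.5. The B or plasma difference was -0.40 points without the first 12-month library, where the mixed-sex libraries differed by 4.18, and -5.69 without the second, where they differed by -6.39. After thinning it was -7.76 points, from -4.98 in the male and -10.5 in the mixed-sex libraries, with an exact permutation p of 0.167. The dendritic difference ran from 2.01 points without the second 12-month library to 7.33 with 2 Ptprc UMIs. The sign for macrophages turned under 7 of 11 alternatives: it was -1.94 points in cells of at least 1000 UMIs, -9.18 with 2 Ptprc UMIs, -6.05 after thinning, -6.53 with the pan-leukocyte genes in place of Ptprc, -2.45 with a lead of 2 markers, -1.69 without cells holding 3 or more markers of 2 classes and -1.58 without the first 12-month library.

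Across all immune cells, no gene passed the test for age. UMIs summed per library were fitted with edgeR's quasi-likelihood test with format as a term. With Benjamini-Hochberg adjustment, 0 of 7600 genes (0.0%) were called at an adjusted p under 0.05, and the smallest adjusted p was 1.00. At an unadjusted p under 0.05 there were 167 genes, 74 higher and 93 lower in the older libraries. DESeq2 also called 0, with 53 genes at an unadjusted p under 0.05. Without the 24-month library, which leaves the contrast to the male pair, edgeR called 37 genes, and it called 18 without the 22-month, 15 without the 3-month and 1 without the first 12-month library. With either male library left out, here and in the classes below, the format term takes up the other one. Both fits then compare 24 with 12 months alone and are not separate checks. In these fits and in those without the 24-month library, the spread between libraries comes from the 12-month pair alone. In the fit of all libraries it comes from that pair and from how far the age difference differs between the formats. The median standard error of a log2 difference in the fit of all libraries was 0.42, and 0.26 for the 1350 genes at 100 CPM or more. In sums over all immune cells, fewer cells of a type and less RNA per cell cannot be told apart. Beside each list below stands the background: 15.4% of all tested genes lay above in the older library of both formats, and 13.6% lay below in both.

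The 8 genes with the smallest p among those higher in both formats included several genes of macrophages. None passed the threshold. Ms4a7, a tetraspan membrane protein of mature macrophages, was at 351 CPM at 22 months against 140.2 at 3 months, and 215 CPM at 24 months against 95.4 and 139 at 12 months, a log2 difference of 1.07 ± 0.27 (SE). Trem2, the lipid receptor of phagocytes, was at 98.8 CPM at 3 months and 178 at 22 months in the male libraries, and 34.4 and 68.6 CPM at 12 months and 141 at 24 months in the others, a difference of 1.26 ± 0.32. C3ar1, the receptor for the complement fragment C3a, was at 127 CPM at 22 months against 60.6 at 3 months, and 51.0 CPM at 24 months against 26.5 and 28.8 at 12 months, a difference of 0.97 ± 0.30. For each of the 3 genes both older libraries lay above the younger ones of their format, although the 24-month level of C3ar1 was below that at 3 months. Ms4a7, itself 1 of the macrophage markers, had 593 and 239 UMIs in older and younger macrophage-class cells, and 3 or fewer in the dendritic, T or NK and B or plasma classes of either age.

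Acp5, the tartrate-resistant acid phosphatase of lysosomes, was at 84.0 and 60.6 CPM in the male libraries of 22 and 3 months, and 178, 65.3 and 50.9 CPM in those of 24, 12 and 12 months, a difference of 1.20 ± 0.30. At 24 months, 100 of its 209 UMIs came from 1 macrophage-class cell. Hebp1, a haem-binding protein, was at 38.4 CPM at 22 months against 12.7 at 3 months, and 28.9 CPM at 24 months against 5.74 and 13.3 at 12 months. Camk1, a calmodulin-dependent kinase, was at 54.2 CPM at 3 months and 136 at 22 months in the male libraries, and 35.9 and 37.6 CPM at 12 months and 62.9 at 24 months in the others. Gsg1, a germ cell-associated gene, had 15 UMIs at 22 months, 1 at 3 months, 27 at 24 months and 8 and 4 at 12 months. Most Gsg1 UMIs were in the dendritic class, with 31 in older and 9 in younger cells. With the highest cell of each library left out, Ms4a7, Trem2, C3ar1, Acp5 and Camk1 still lay above in both formats. For Hebp1 and Gsg1 all UMIs at 3 months were in 1 cell, so the male side of that check was fixed. The size of these differences depended on the cell rule and on single libraries. With the pan-leukocyte genes in place of Ptprc, Ms4a7 differed by 0.40, Trem2 by 0.56, C3ar1 by 0.00, Acp5 by 0.56 and Camk1 by 0.23. Of the 15 named genes fitted there, all 15 were nearer 0, 12 of them by over 1.5 times in fold. Acp5 differed by 0.48 without the 24-month library, which leaves the contrast to the male pair. It differed by 1.58 without the 22-month library, which leaves the contrast to the 24-month library and the 12-month pair.

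The eighth gene of this set, Cma1, a chymase of mast cells, rested on a single cell. It had 150 UMIs at 22 months, of which 146 were in the 1 cell classed as mast, and 8 UMIs at 3 months and 0 to 1 in the mixed-sex libraries. Without the highest cell of each library the 22-month level was 4.05 CPM, below the 6.37 CPM at 3 months. Tpsb2 and Mcpt4, further mast cell proteases, had 136 and 32 UMIs in the same cell.

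Among genes lower in both formats, the smallest p belonged to Tnfrsf4, which encodes OX40, a co-stimulatory receptor of activated and regulatory T cells. It was at 4.05 CPM at 22 months against 31.9 at 3 months, and 12.7 CPM at 24 months against 53.8 and 61.9 at 12 months, a log2 difference of -2.37 ± 0.45. All 3 younger libraries lay above both older ones. Its UMIs came from few cells: 3 at 22 months, 3 at 3 months, 8 and 3 at 12 months and 4 at 24 months, mostly of the T or NK class. Adgre4, an adhesion receptor of monocytes and macrophages, was at 23.3 and 76.5 CPM in the male libraries of 22 and 3 months, and 8.50, 17.9 and 35.4 CPM in those of 24, 12 and 12 months, a difference of -1.61 ± 0.45. Dgat2, which makes triglycerides, was at 5.06 CPM at 22 months against 35.1 at 3 months, and 9.35 CPM at 24 months against 17.2 and 37.6 at 12 months. Tpm3-rs7, a tropomyosin-related sequence whose reads may be shared with Tpm3, was at 5.06 and 25.5 CPM in the male libraries of 22 and 3 months, and 13.6, 28.0 and 55.3 CPM in those of 24, 12 and 12 months. These 4 genes lay below in both formats also with the highest cell of each library left out.

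The other 4 named genes of this direction did not keep it without their highest cell. For Dusp14, a dual-specificity phosphatase, the levels were then 4.05 CPM at 22 months against 19.1 at 3 months, and 1.70 CPM at 24 months against 17.2 and 0 at 12 months. For Nrn1, a small membrane-anchored protein, they were 3.04 CPM against 3.19, and 6.80 CPM at 24 months against 15.8 and 4.42 at 12 months. Both genes lost their side in the mixed-sex libraries. Ly6k, a member of the Ly6 family, had 38 of its 39 UMIs in the second 12-month library in 1 cell of the B or plasma class. Krt15, a keratin of basal urothelium that the cell rule did not use, was at 163 CPM at 22 months against 344 at 3 months, and 297 CPM at 24 months against 576 and 511 at 12 months, with 64 of 108 UMIs at 3 months in 1 cell.

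**Figure D2:**
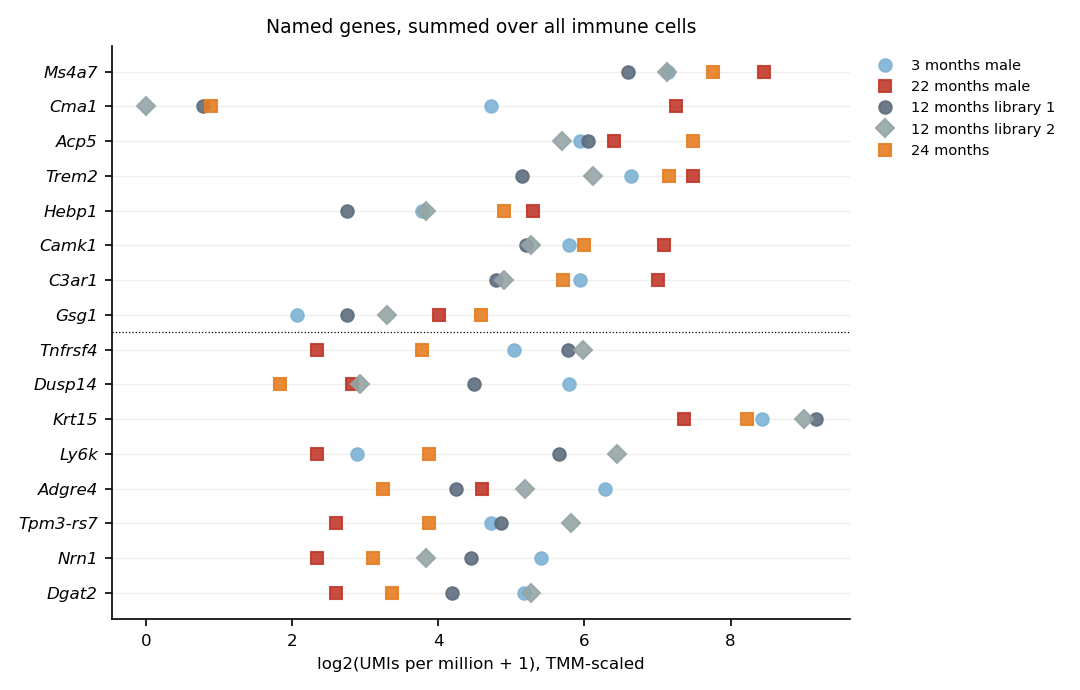
Levels of the 16 named genes in the sums over all immune cells, as log2 of CPM plus 1 after TMM scaling, 1 point per library. Genes above the dotted line lay higher and genes below it lower in the older library (squares) of both formats; none passed the edgeR threshold, and Cma1 at 22 months comes from 1 mast cell.

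Markers of other bladder cell types were present in the same sums. Of the 10 urothelial markers, 5 lay below in both formats and 0 above, and their summed level was 477 CPM at 22 months against 714 at 3 months, and 1457 CPM at 24 months against 2599 and 2228 at 12 months. Upk1a, a uroplakin, differed by -0.95 ± 0.29 and Cldn4, a claudin, by -0.90 ± 0.29. The fibroblast markers summed to 2954 CPM at 22 months against 1632 at 3 months, and 571 CPM at 24 months against 563 and 564 at 12 months, and the smooth muscle markers to 354 CPM at 22 months against 134 at 3 months, and 79.0 CPM at 24 months against 55.2 and 53.1 at 12 months. All 4 smooth muscle markers tested lay above in both formats, with a median log2 difference of 0.82. Smooth muscle actin (Acta2) was at 113 CPM at 22 months against 28.7 at 3 months, and 15.3 CPM at 24 months against 12.2 and 6.64 at 12 months. Whether RNA of other cells took part in the age differences was not tested.

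Genes of lipid-associated macrophages had the highest median difference of the lists with at least 10 tested genes. Smaller lists had higher medians, at 0.82 for smooth muscle (4 genes tested) and 0.75 for neutrophil (3 genes tested). All 12 members were tested, and 6 lay above in the older library of both formats, namely Trem2, Apoe, Gpnmb, Lpl, Ctsb and Ctsd, while 0 lay below. The median log2 difference was 0.64 against 0.00 over all genes, and 0.24 and 0.95 within the male and mixed-sex formats. It was 0.25 without the 24-month library, 0.36 without the first 12-month library, 0.35 with the pan-leukocyte genes in place of Ptprc, and -0.10 over the 7 members tested after thinning. Apoe, the lipoprotein that macrophages secrete, was at 19661 CPM at 22 months against 19052 at 3 months, and 7502 CPM at 24 months against 2995 and 4002 at 12 months, a difference of 0.66 ± 0.28. The male libraries differed by 0.05 on the log2 scale, and 24 months lay 1.12 above 12 months. A single macrophage-class cell held 2879 of the 8830 Apoe UMIs at 24 months, and another 1197 of the 1809 in the second 12-month library. Lpl, lipoprotein lipase, was at 38.2 CPM at 3 months and 258 at 22 months in the male libraries, and 83.9 and 106 CPM at 12 months and 118 at 24 months in the others, and Gpnmb, a glycoprotein of phagocytes, at 173 and 124 CPM in the male libraries of 22 and 3 months, and 295, 38.0 and 254 CPM in those of 24, 12 and 12 months. Of the 115 Gpnmb UMIs in the second 12-month library, 107 were in 1 cell. Spp1, osteopontin, went opposite ways, at 30.4 CPM at 22 months against 147 at 3 months, and 189 CPM at 24 months against 68.2 and 68.6 at 12 months. The summed level of the list was 28672 CPM at 22 months against 26332 at 3 months, and 14658 CPM at 24 months against 7780.3 and 11049 at 12 months. No member was called. Genes of the lists that are named with values beyond the highest member and the member with the smallest p were chosen after their values were seen, here and below.

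**Figure D3:**
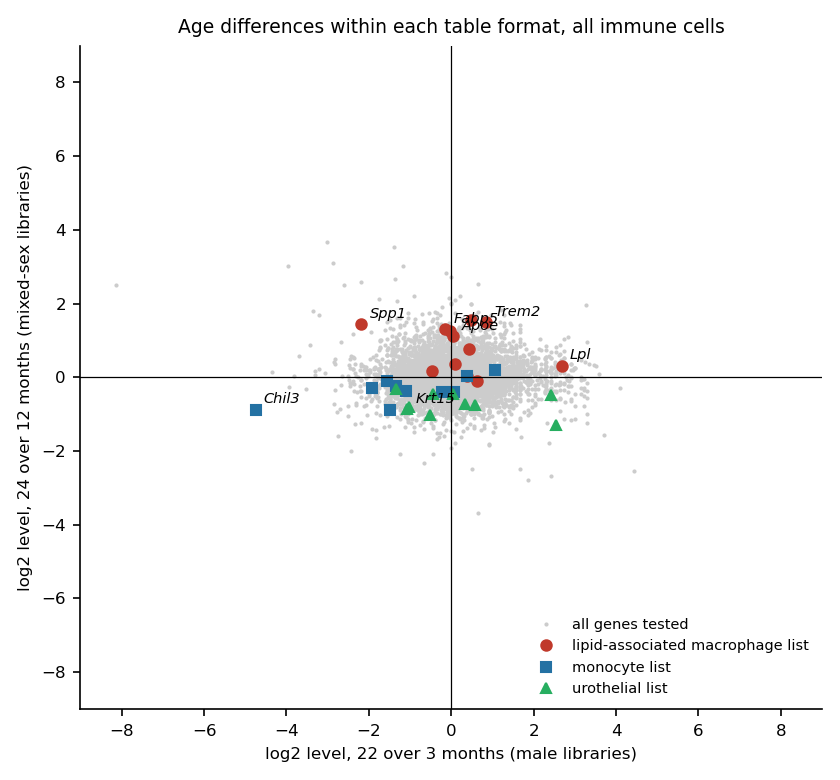
Log2 level of each tested gene at 22 over 3 months in the male libraries (x axis) and at 24 over the mean of the 12-month libraries (y axis), summed over all immune cells. All lipid-associated macrophage genes (circles) but Tyrobp lie above 0 on the y axis, with a median of 0.95 there and 0.24 on the x axis. The monocyte markers (squares) have medians of -1.21 on the x axis and -0.34 on the y axis, and all urothelial markers (triangles) lie below 0 on the y axis.

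The macrophage markers themselves had a smaller median difference, which was not tested against that of the lipid-associated list. Of these markers, 4 of 10 tested members lay above and 0 below in both formats, and none was called. The median log2 difference was 0.41, and 0.04 and 0.63 within the male and mixed-sex formats. C1qa was at 1956 CPM at 22 months against 1676 at 3 months, and 1306 CPM at 24 months against 617 and 522 at 12 months, and C1qb at 2075 CPM at 22 months against 1699 at 3 months, and 1331 CPM at 24 months against 629.9 and 628 at 12 months. Cd163, a haemoglobin scavenger receptor of resident macrophages, was instead at 26.3 and 153 CPM in the male libraries of 22 and 3 months, and 19.5, 13.6 and 11.1 CPM in those of 24, 12 and 12 months. Monocyte markers went the other way, with 1 of 10 above, 3 below and a median of -0.73. Chil3, a chitinase-like protein of monocytes and alternatively activated macrophages, was at 57.7 CPM at 22 months against 1613 at 3 months, and 67.1 CPM at 24 months against 43.8 and 352 at 12 months. Of its 506 UMIs at 3 months, 285 were in 1 cell, and the standard error of its log2 difference was 1.80. Ccr2, the chemokine receptor by which monocytes leave the marrow, was the 1 monocyte marker above in both formats, at 228 CPM at 22 months against 108 at 3 months, and 265 CPM at 24 months against 207 and 252 at 12 months. Ace and Treml4, markers of patrolling monocytes, were below in both, with log2 differences of -1.40 ± 0.59 and -0.89 ± 0.48.

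Genes of tissue-resident macrophages had opposite age differences in the formats. Their summed level was 519 CPM at 22 months against 1131 at 3 months, and 583 CPM at 24 months against 344 and 303 at 12 months. F13a1, a coagulation factor subunit made by resident macrophages, was at 59.7 CPM at 22 months against 239 at 3 months, and 80.7 CPM at 24 months against 40.2 and 79.6 at 12 months. Lysosome genes were close to level, with a median of 0.09 over 14 genes and 2 above in both formats. Ctsl, cathepsin L, was 1 of them at 152 CPM at 22 months against 76.5 at 3 months, and 162 CPM at 24 months against 70.3 and 124 at 12 months. Among Fc receptor and complement genes, 4 of 13 lay above and 1 below, with a median of 0.28, and the 4 were C1qa, C1qb, C3ar1 and Cfp, properdin.

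Within the macrophage class, 0 of 4566 genes (0.0%) were called by edgeR, with 192 at an unadjusted p under 0.05, and 0 by DESeq2, with 53. The smallest adjusted p was 0.41. The edgeR count was 122 without the 24-month library, 24 without the 22-month, 26 without the 3-month and 1 without the first 12-month library. In this class 18.5% of tested genes lay above in both formats and 14.6% below. Acp5 and Trem2 were among the 8 genes above with the smallest p here too, in sums that share cells with those over all immune cells. Of the Trem2 UMIs over all immune cells, the macrophage class held 175 of 176 at 22 months and 30 of 31 at 3 months, 164 of 166 at 24 months, and 35 of 48 and 31 of 31 at 12 months. Trem2 was at 398 CPM at 22 months against 226 at 3 months, and 376 CPM at 24 months against 97.0 and 172 at 12 months, a log2 difference of 1.24 ± 0.31. Acp5 was at 129 CPM at 22 months against 60.2 at 3 months, and 397 CPM at 24 months against 136 and 49.9 at 12 months. Ctsl was at 120.4 CPM at 3 months and 211 at 22 months in the male libraries, and 141 and 133 CPM at 12 months and 380.5 at 24 months in the others, and 91 of its UMIs at 24 months were in 1 cell. For these 3 genes both older libraries lay above the younger ones of their format in the macrophage class, which is how they were chosen.

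Fabp5, a carrier of fatty acids, was at 68.2 CPM at 22 months against 22.6 at 3 months, and 947 CPM at 24 months against 103 and 305 at 12 months, a difference of 2.16 ± 0.47. Mfge8, a bridge between phagocytes and dying cells, was at 63.6 and 30.1 CPM in the male libraries of 22 and 3 months, and 103, 13.9 and 27.7 CPM in those of 24, 12 and 12 months, with 37 of its UMIs at 24 months in 1 cell. Tmem86a, a lysoplasmalogenase, was at 15.1 CPM at 3 months and 72.7 at 22 months in the male libraries, and 13.9 and 11.1 CPM at 12 months and 52.7 at 24 months in the others. Rgs1, a brake on chemokine receptor signals, was at 645 CPM at 22 months against 286 at 3 months, and 300.3 CPM at 24 months against 191 and 166 at 12 months. The 24-month level of Fabp5 was the highest of the 5 libraries, and its 22-month level was below both 12-month levels. At 24 months 226 of the 413 Fabp5 UMIs of the class were in 1 cell, without which the level was 429 CPM. Single cells also held 20 of 30 at 22 months and 44 of 55 in the second 12-month library. Ccl17, a chemokine that draws CCR4-bearing T cells and is made mainly by dendritic cells, had 167 UMIs at 22 months, 0 at 3 months, 86 at 24 months and 11 and 1 at 12 months in this class. They lay in 8, 5, 1 and 1 cells of the libraries that had any, and the dendritic class held 445 older and 228 younger Ccl17 UMIs. Leaving out the highest cell of each library leaves Ccl17 at 0 in all 3 younger libraries and Fabp5 at 0 at 3 months, since none had UMIs in more than 1 cell there, so that setting is no check of either gene. Of the 16 named genes of the class, edgeR called 7 with no filter on low counts. They were Acp5, Trem2, Ccl17, Fabp5, Clec4e, Ccl7 and Isg15. It called 1, Ccl17, by pan-leukocyte genes in place of Ptprc, and the same gene without the first 12-month library. Fits that leave out 1 male library both compare the 24-month library with the 12-month pair. The fit without the 24-month library compares the male pair. The spread in these fits comes from the 12-month pair alone, so their calls are no separate checks of the named genes. With the pan-leukocyte genes in place of Ptprc all 16 differences were nearer 0, 6 of them by over 1.5 times in fold.

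**Figure D4:**
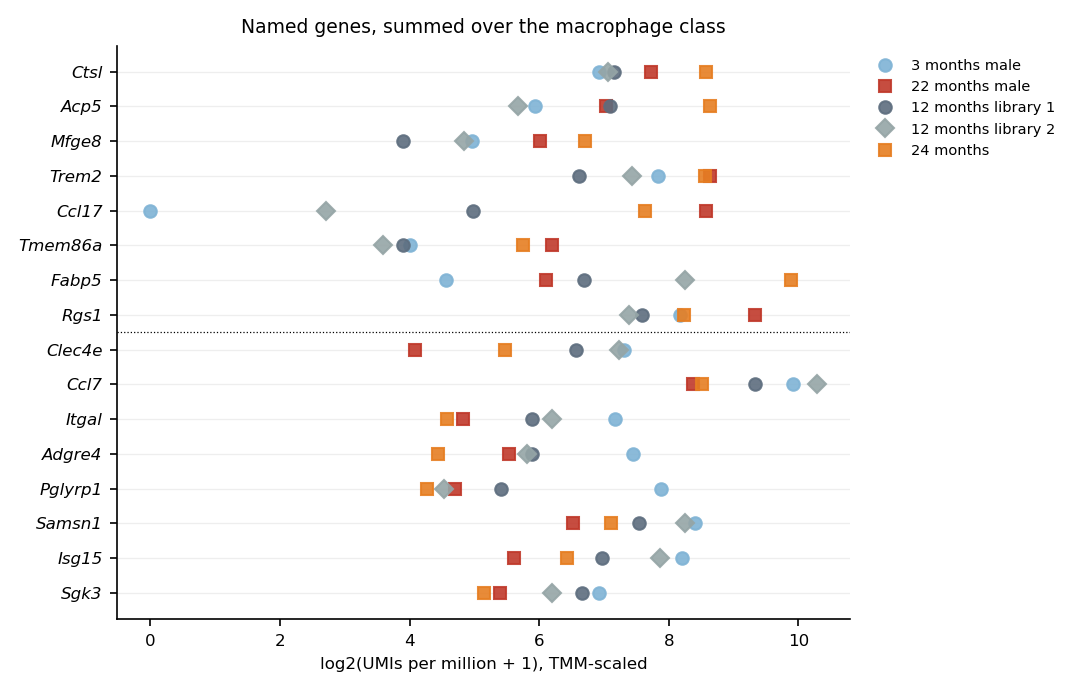
Levels of the 16 named genes in sums over the macrophage class, as log2 of CPM plus 1 after TMM scaling, 1 point per library. The upper 8 genes lay higher and the lower 8 lower in the older library (squares) of both formats; Ccl17 was at 0 at 3 months.

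The 8 genes below in both formats with the smallest p in the macrophage class also did not pass the threshold. Clec4e (Mincle), a receptor for microbial glycolipids, was at 15.9 CPM at 22 months against 158 at 3 months, and 43.5 CPM at 24 months against 94.3 and 149.7 at 12 months, a difference of -2.09 ± 0.45. Ccl7, a chemokine for monocytes, was at 332 CPM at 22 months against 964 at 3 months, and 364 CPM at 24 months against 643 and 1242 at 12 months, a difference of -1.43 ± 0.32. Without the highest cell of each library Ccl7 was at 252 CPM at 22 months against 422 at 3 months. At 24 months it was then at 50.4 CPM, against 280 and 416 at 12 months. Itgal, the CD11a integrin chain that holds white cells to vessel walls, was at 27.3 and 143 CPM in the male libraries of 22 and 3 months, and 22.9, 58.2 and 72.1 CPM in those of 24, 12 and 12 months. In each case all 3 younger libraries lay above both older ones. Adgre4, Samsn1, an adaptor of immune receptors, and Sgk3, a kinase, differed by -1.70 ± 0.42, -1.24 ± 0.34 and -1.43 ± 0.40. Isg15, a ubiquitin-like protein induced by interferon, was at 47.7 CPM at 22 months against 294 at 3 months, and 84.8 CPM at 24 months against 125 and 233 at 12 months. Pglyrp1, which binds bacterial peptidoglycan, was at 233 CPM at 3 months and 25.0 at 22 months in the male libraries, and 41.6 and 22.2 CPM at 12 months and 18.3 at 24 months in the others. Isg15 and Pglyrp1 no longer lay below in both formats without their highest cells.

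In the same class the monocyte markers, which helped to choose its cells, had 5 of 10 below in both formats and 1 above, with a median of -0.92. The lipid-associated list had 6 of 12 above and 0 below, with a median of 0.82 against 0.02 over all genes of the class. Lysosome genes had 7 of 14 above and 1 below, with a median of 0.16. Chemokines had 6 of 15 below and 1 above, but a median of 0.14 with 8 of 15 differences above 0. The urothelial markers summed to 470.3 CPM at 22 months against 1061 at 3 months, and 1348 CPM at 24 months against 1929.7 and 1458 at 12 months in this class, and the fibroblast markers summed to 3256 CPM at 22 months against 1009 at 3 months, and 261 CPM at 24 months against 274 and 532 at 12 months. The smooth muscle markers summed to 482 CPM at 22 months against 45.2 at 3 months, and 94.0 CPM at 24 months against 30.5 and 33.3 at 12 months, above in the older library of both formats. Tpm2, a tropomyosin of muscle, was the 1 smooth muscle marker tested here and differed by 1.61 ± 0.66. The part of these markers in the other values of the class was not tested.

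Genes of inflammation were counted over all immune cells, where 15.4% of all genes lay above and 13.6% below in both formats. Of the 13 NF-kappaB genes, 5 lay below in both formats and 0 above, with a median of -0.11. Cd83, an NF-kappaB target of activated antigen-presenting cells, was at 1399 CPM at 22 months against 1632 at 3 months, and 509 CPM at 24 months against 527 and 763 at 12 months, a difference of -0.29 ± 0.27. Inflammatory cytokine genes had 3 of 11 below and 0 above, but their median was 0.33 in the male and -0.37 in the mixed-sex libraries. Il1b, the precursor of interleukin 1 beta, was at 1704 and 1163 CPM in the male libraries of 22 and 3 months, and 1472, 1543 and 2349 CPM in those of 24, 12 and 12 months, with the second 12-month library highest, and Il10, an anti-inflammatory cytokine, differed by -1.10 ± 0.50. Type I interferon response genes had 1 of 11 above and 2 below, near the shares over all genes, with a median of 0.02. Cxcl10, an interferon-induced chemokine, was at 38.4 CPM at 22 months against 60.6 at 3 months, and 38.2 CPM at 24 months against 61.7 and 117 at 12 months.

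MHC class II genes load and show peptides to helper T cells. None of 10 lay above and 1 below in both formats, and their log2 differences ran from -0.25 to 0.25. Cd74, the invariant chain, was at 63144 CPM at 22 months against 59595 at 3 months, and 37154 CPM at 24 months against 34665 and 40514 at 12 months. MHC class I genes had 3 of 11 above and 3 below, with a median of -0.04. Among chemokine receptors, 3 of 8 lay above, namely Ccr2, Cxcr4 and Cx3cr1, and 1 below, Ccr7, which guides dendritic and T cells into lymph vessels, at 29.3 CPM at 22 months against 105 at 3 months, and 108 CPM at 24 months against 113 and 257 at 12 months.

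In the dendritic class, 0 of 2952 genes (0.0%) passed in edgeR, where 82 had an unadjusted p under 0.05 and the smallest adjusted p was 0.10. DESeq2 called 1, with 25 at an unadjusted p under 0.05. The edgeR count was 59 without the 24-month library, 2 without the 22-month, 10 without the 3-month, and 6 and 2 without the first and the second 12-month library. Here 17.4% of genes lay above in both formats and 13.9% below. Each 3-month level of the class rests on 15 cells, of which 4 led by 2 or more markers. With the pan-leukocyte genes in place of Ptprc all 16 named genes of the class were nearer 0 or turned sign, 9 of them by over 1.5 times in fold. The gene that DESeq2 called was Lyz1, a lysozyme, with an adjusted p of 0.00466. It was at 635 CPM at 22 months against 22.5 at 3 months, and 340.2 CPM at 24 months against 58.2 and 16.7 at 12 months, an edgeR log2 difference of 3.27 ± 0.47. Without the highest cell of each library Lyz1 was at 97.6 CPM at 22 months and 63.1 at 24 months, against 0 at 3 months and 30.8 and 0 at 12 months. Both 0 values were fixed, since only 1 cell of the class held Lyz1 UMIs in each of those libraries. In that setting edgeR called 0 genes of the class, with 50 at an unadjusted p under 0.05 and an adjusted p of 0.999 for Lyz1. Lyz2, the lysozyme of macrophages and monocytes, was at 4100.2 CPM at 22 months against 967 at 3 months, and 2788 CPM at 24 months against 2211 and 1125 at 12 months. The copies are closely related, so reads may be shared between them. Macrophage-list markers in this class summed to 226 CPM at 22 months against 22.5 at 3 months, and 105 CPM at 24 months against 168 and 99.96 at 12 months, and the part of macrophage RNA in the Lyz1 and Lyz2 levels was not tested.

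Irf8, a transcription factor that cross-presenting dendritic cells need, was at 909.7 and 607 CPM in the male libraries of 22 and 3 months, and 722, 298 and 275 CPM in those of 24, 12 and 12 months, a difference of 1.04 ± 0.30. Cst3, cystatin C, was at 19640.2 CPM at 22 months against 14679 at 3 months, and 21628 CPM at 24 months against 15283 and 11054 at 12 months. Xcr1, the receptor that marks cross-presenting dendritic cells and is 1 of the class markers, had 41 UMIs at 22 months, 7 at 3 months, 40 at 24 months and 27 and 4 at 12 months over all immune cells. Tnf, a pro-inflammatory cytokine, had 15 UMIs at 22 months and 0 at 3 months, and 29 at 24 months against 12 and 3 at 12 months. Of the 15 UMIs of Tnf at 22 months, 14 were in 1 cell, without which the level there was 4.44 CPM. The other 3 named genes above in both formats were Ptpn18, a phosphatase, Txndc15 and Rplp1, a ribosomal stalk protein, with differences of 0.94 ± 0.31, 1.23 ± 0.44 and 0.78 ± 0.29. Of the ribosomal protein genes of this class, 42 of 81 lay above in both formats and 0 below, with a median of 0.28.

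Ccr7, itself a marker of the class, was at 31.1 CPM at 22 months against 629 at 3 months, and 221 CPM at 24 months against 305 and 841 at 12 months, a difference of -2.18 ± 0.69. Of its 28 UMIs at 3 months 26 were in 1 cell, and without the highest cells Ccr7 was at 17.8 CPM at 22 months against 45.0 at 3 months. Il4i1, an amino acid oxidase of mature dendritic cells, had 44 UMIs in the second 12-month library, 13 in the first, 11 at 3 months, 8 at 22 months and 7 at 24 months. Ccl9, a chemokine, was at 572 CPM at 22 months against 809 at 3 months, and 214 CPM at 24 months against 613 and 949.7 at 12 months. Ccl5, a T cell chemokine that mature dendritic cells also make, was at 93.2 and 989 CPM in the male libraries of 22 and 3 months, and 126, 229 and 299.9 CPM in those of 24, 12 and 12 months, a difference of -1.98 ± 0.49. Without the highest cell its 3-month level was 157 CPM, against 39.9 at 22 months. For Ccl5 and Ccr7 the sign turned when the cells were chosen by pan-leukocyte genes in place of Ptprc, to 2.99 and 0.72. In that setting edgeR called 5 genes of the class, all higher in the older libraries, with Ccl5 and Lyz1 among them. Cenpa, a centromere histone, and Ube2c, which drives exit from mitosis, differed by -1.82 ± 0.45 and -2.34 ± 0.64. Vapb, a membrane tether, and Il21r, the interleukin 21 receptor, differed by -1.97 ± 0.57 and -2.35 ± 0.77. Vapb at 3 months was at 562 CPM, and at 112 without the highest cell. Cenpa, Ube2c, Il21r and Il4i1 did not keep their side without their highest cells.

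T and NK cells were too few for the planned fit, with 8 T or NK cells in the second 12-month library. With a minimum of 5 cells, a choice made after the class sizes were seen, 0 of 2141 genes (0.0%) passed in edgeR, while 64 had an unadjusted p under 0.05. Tnfrsf4 had the smallest p there, with 4 UMIs at 22 months and 8 at 3 months, and 15 at 24 months against 74 and 27 at 12 months. As CPM of the class that was 30.9 and 184 CPM in the male libraries of 22 and 3 months, and 109.6, 660.3 and 528 CPM in those of 24, 12 and 12 months, a log2 difference of -2.39 ± 0.41 with an adjusted p of 0.246. Ifi27l2a, an interferon-induced gene, was at 154 CPM at 22 months against 68.8 at 3 months, and 877 CPM at 24 months against 277 and 333 at 12 months. The next genes by p included Gsn, Mgp, Fbln1 and Dcn, which fibroblasts express. Dcn, decorin, was at 1729 CPM at 22 months against 1009.5 at 3 months, and 679.6 CPM at 24 months against 169.5 and 19.6 at 12 months in the T or NK class, and whether fibroblast RNA in these cells changed the other values was not tested.

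Cytotoxic genes are those by which T and NK cells kill or signal. Ccl5, which effector T and NK cells secrete, was at 23797 CPM at 22 months against 18011 at 3 months, and 7797 CPM at 24 months against 6906 and 8319 at 12 months in the T or NK class. Gzmb, granzyme B, was at 2949 CPM at 22 months against 2386 at 3 months, and 183 CPM at 24 months against 812 and 665 at 12 months, and Gzma, granzyme A, at 6021 CPM at 22 months against 5369 at 3 months, and 453 CPM at 24 months against 3301 and 1135 at 12 months. For the NK or ILC1 list the older library was above in the male format and below in the mixed-sex format, with a summed level over all immune cells of 1322 CPM at 22 months against 1010.3 at 3 months, and 253 CPM at 24 months against 592 and 507 at 12 months. Ncr1, the NKp46 receptor that defines NK cells and type 1 innate lymphoid cells, was at 71.8 CPM at 22 months against 89.2 at 3 months, and 4.25 CPM at 24 months against 28.0 and 11.1 at 12 months, and lay below in both formats. T cell markers had the reverse pattern, with a summed level of 664 CPM at 22 months against 972 at 3 months, and 534 CPM at 24 months against 355 and 469 at 12 months. Of the helper, regulatory and naive T genes, 10 of 14 were tested, 2 lay above in both formats, Ikzf2 and Icos, and 2 below, Tnfrsf4 among them. Ikzf2 encodes Helios, a transcription factor of regulatory T cells, and had 14 UMIs at 22 months, 3 at 3 months, 40 at 24 months and 23 and 1 at 12 months. Foxp3, the master factor of regulatory T cells, had a single UMI in the 5 libraries.

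B and plasma cells could not be fitted on their own, with 3 of them at 22 months. Cd79a, a chain of the B cell receptor complex, was at 3.04 CPM at 22 months against 51.0 at 3 months, and 259 CPM at 24 months against 286 and 181 at 12 months. Ms4a1, which encodes CD20, was at 66.9 CPM at 3 months and 3.04 at 22 months in the male libraries, and 121 and 44.2 CPM at 12 months and 111 at 24 months in the others. Jchain, which joins the units of IgA and IgM, was at 11.1 CPM at 22 months against 6.37 at 3 months, and 5547 CPM at 24 months against 6581 and 3718 at 12 months, so the mixed-sex libraries held nearly all of its UMIs. In the first 12-month library 23 macrophage-class cells also carried Jchain UMIs, and 4 did at 22 months. Mzb1, a chaperone of antibody-secreting cells, was at 4.05 and 95.6 CPM in the male libraries of 22 and 3 months, and 574, 1701 and 274 CPM in those of 24, 12 and 12 months. The 24-month levels of Jchain and Mzb1 lay between those of the 12-month libraries. Immunoglobulin and T cell receptor constant genes other than Jchain were not analysed here. Of the age-associated B cell list, Itgax lay above in both formats and Zbtb32 and Cd80 below, and Itgax, which encodes CD11c, is also a gene of macrophages and dendritic cells.

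Proliferation genes showed no common side. None of the 13 cell cycle genes lay above or below in both formats, and Stmn1, stathmin, was at 17.2 CPM at 22 months against 3.19 at 3 months, and 443 CPM at 24 months against 486 and 254 at 12 months. Genes that respond to tissue dissociation had 6 of 20 above and 2 below, with a median of 0.13. Hspa1a, an inducible heat shock protein, was at 972 CPM at 22 months against 497 at 3 months, and 729.9 CPM at 24 months against 622 and 79.6 at 12 months, with the second 12-month library the lowest of the 5. Ribosomal protein genes had 35 of 81 above and 2 below, with a median of 0.23, at the format levels given above. In the list medians the male and mixed-sex formats had the same sign for the lipid-associated, monocyte, urothelial and ribosomal protein lists and opposite signs for the T, NK or ILC1, B and tissue-resident macrophage lists.

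**Figure D5:**
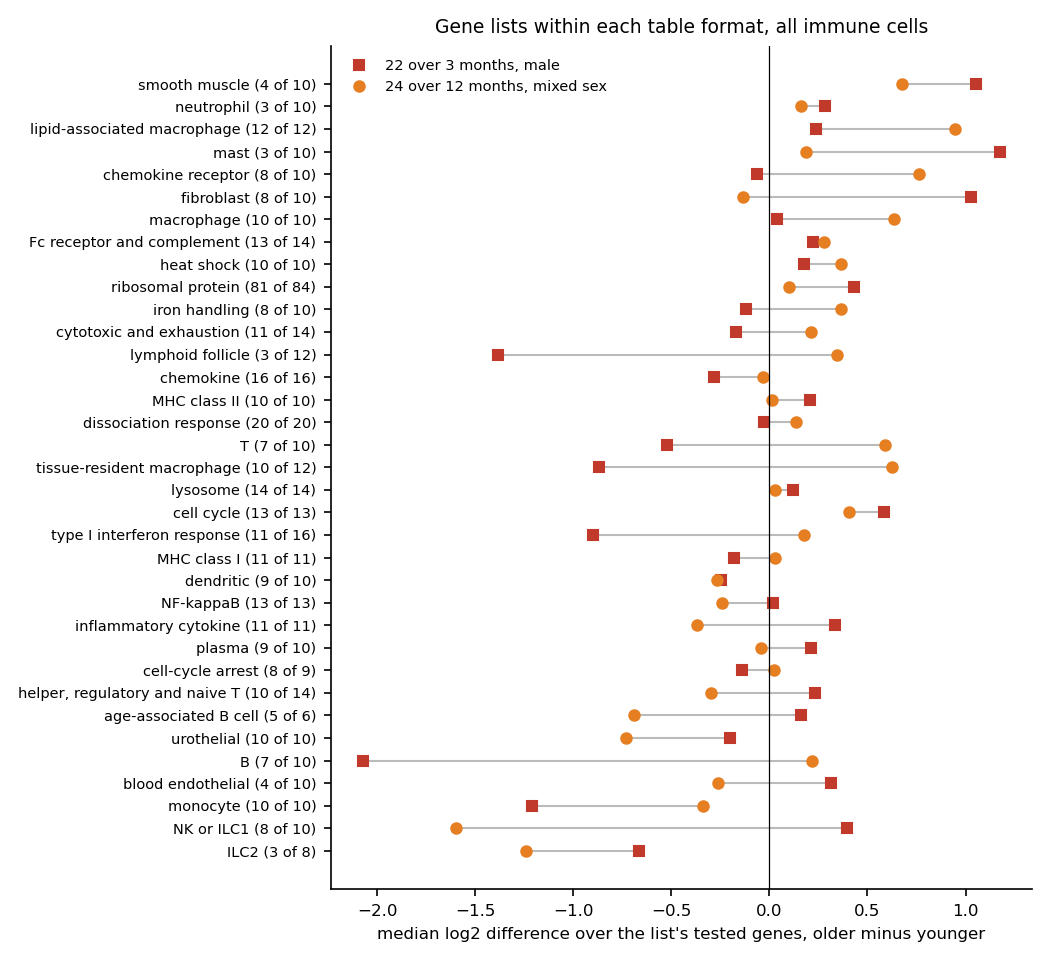
Median log2 difference, older minus younger, over the tested genes of each list with at least 3 tested genes, for 22 over 3 months (squares) and 24 over 12 months (circles) in sums over all immune cells. Numbers in brackets are tested genes of all genes in the list. The lipid-associated macrophage medians are both above 0 and the monocyte medians both below, while the B, T and NK or ILC1 medians fall on opposite sides of 0.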

How the data were processed

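The deposited values were raw UMI counts per gene and cell barcode for 5 whole-bladder libraries. Cell Ranger is among the tools and mm10 the build named per the submitters' processing notes, with no version used here. From these counts the cell rule was applied, UMIs were summed per library over all immune cells or over 1 marker class, and 27464 genes common to the tables were kept, without mitochondrial genes. Sums were tested with edgeR 4.0.16 in R 4.3.3 (quasi-likelihood, robust, TMM scaling, filterByExpr, table format as a term, 2 residual degrees of freedom), with Benjamini-Hochberg adjustment and a threshold of 0.05; the fit was tested on simulated data. A class was fitted where every library had at least 10 of its cells. DESeq2 1.42.0 was an alternative. Levels are CPM of the genes tested after TMM scaling. Levels of the T or NK class are CPM without TMM scaling. A gene was above or below in both formats when every older library lay on 1 side of every younger one of its format. Doublets were kept; removing calls made with Scrublet in scanpy 1.11.5 was an alternative. As none of the 3 fits at these settings called 10 genes, the 8 genes of each direction with the smallest unadjusted p, a mean of at least 10 CPM and the same side in both formats were named, and in each list the highest member and the one with the smallest p. Predicted genes, receptor variable segments and genes of the cell rule were passed over. The members and lists were chosen with earlier results of these data known. Immunoglobulin and T cell receptor constant genes other than Jchain were not analysed here, and some genes of the lists are not reported here.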

Additional observations from a re-analysis of the deposited data

Results flagged for a closer look

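The age difference went opposite ways in the male and the mixed-sex libraries for several results, and these differences were not tested. The share of immune cells was 1.39 percentage points higher at 22 than at 3 months and 0.449 points lower at 24 than at 12 months, a difference between formats of -1.83 points. After thinning to 1000 UMIs, and when counted by pan-leukocyte genes at 10.96% against 8.12% and 7.82% against 7.54% and 6.56%, the older library lay above in both formats. No interval was computed for either setting. Summed gene lists were counted only where the 24-month level lay on the same side of both 12-month levels, which left out the B list. Values are the log2 age difference of the mixed-sex minus that of the male libraries. Those above 0 were tissue-resident macrophage at 1.98, lymphoid follicle at 1.63, T at 0.94 and chemokine receptor at 0.30. Those below 0 were mast at -4.02, NK or ILC1 at -1.50, ILC2 at -1.16, inflammatory cytokine at -0.80 and helper, regulatory and naive T at -0.40. For the ILC2 and the helper, regulatory and naive T lists the male libraries barely differed, at 0.0019 and 0.015 on the log2 scale, so the opposite sign there is only nominal. The mast value rested on the 1 mast cell at 22 months. Without the highest Cxcl13 cell of each library, a setting chosen after seeing the data, the lymphoid follicle list was at 182 CPM at 22 months against 344 at 3 months, and at 331 CPM at 24 months, between the 288 and 367 CPM at 12 months.

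The difference between formats was also fitted as an edgeR interaction over all immune cells. In that fit 3 of the 4 groups of age and format hold 1 library each, so the spread comes from the pair of 12-month libraries alone, and an adjusted p compares these libraries, not ages or formats. With Benjamini-Hochberg adjustment 28 of 8842 genes were called, 18 above and 10 below 0, and 12 of the called genes belong to the lists reported here. Cxcl13, a B cell chemokine, had an interaction of 5.02, and 275 of its 363 UMIs at 24 months were in 1 macrophage-class cell. Ms4a1 and Cd79a had interactions of 4.74 and 4.13, and each had 3 UMIs at 22 months, in 1 cell. Spp1 and F13a1 had 3.71 and 2.49, and 105 of the 222 Spp1 UMIs at 24 months were in 1 cell. The ribosomal protein gene Rpl7 had 3.59, with 41 UMIs at 3 months and 11 at 22 months, and 3170 and 1065 at 12 months and 2851 at 24 months.

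The listed genes below 0 were Klra4 at -9.91, Klra8 at -8.43, Ifng at -5.91, Xcl1 at -5.61, Areg at -5.26 and Ccl4 at -2.11. Klra4 and Klra8 had 0 UMIs at 24 months, so their fitted values depend on the prior count, and 20 of the 31 Klra4 UMIs in the first 12-month library were in 1 cell. Of the 90 Ifng UMIs at 22 months 64 were in 1 cell, and all 5 Xcl1 UMIs at 3 months were in 1 cell. Areg, an epidermal growth factor receptor ligand, had 1 UMI at 3 months. Ccl4 was not particular to 1 class, with 1830 UMIs in macrophage-class, 973 in dendritic-class and 856 in T or NK cells over all libraries.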

How the results depend on the processing

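No paired analysis was possible because the older and younger libraries share no replicate numbers in the labels. Table format was a term of the fit instead. Over all immune cells, edgeR called 0 genes, but 6 with no filter on low counts and 3 after thinning to 1000 UMIs, and 0 to 37 with 1 library left out. In the macrophage class it called 0, but 15 with no filter, 2 without the highest cell of each gene, 1 by pan-leukocyte genes in place of Ptprc, and 0 to 122 with 1 library left out. In the dendritic class it called 0, but 3 with no filter and 5 by pan-leukocyte genes, DESeq2 called 1, and leaving out 1 library gave 2 to 59. The highest counts came without the 24-month library, which leaves the age contrast to the male libraries alone. Leaving out either male library leaves it to the 24-month library and the 12-month pair, so these fits are not separate checks. In all of them the spread comes from the 12-month pair alone. The causes of these moves were not tested, and the pan-leukocyte, highest-cell and 5-cell settings, and removal of cells with markers of 2 classes for the shares, were chosen after seeing the data. The macrophage share difference of 0.44 points became -1.94 in cells of at least 1000 UMIs, -9.18 with 2 Ptprc UMIs, -6.05 after thinning, -6.53 by pan-leukocyte genes -2.45 with a lead of 2 markers and -1.69 without cells holding markers of 2 classes, and ran from -1.58 to 2.47 with a 12-month library left out. Named genes were chosen for lying on the same side in both formats, so their sign with 1 library left out was fixed by that choice. It stayed the same wherever they were fitted, except for Ccl5 and Ccr7 of the dendritic class, at 2.99 and 0.72 by pan-leukocyte genes. There edgeR called Ccl5 as higher in the older libraries. By pan-leukocyte genes every one fitted was nearer 0 or turned. After thinning to 1000 UMIs only 1 of the 16 named genes over all immune cells was fitted. With no filter on low counts edgeR called 3 of the 16 over all immune cells, 7 in the macrophage class and 3 in the dendritic class. Without their highest cells 7 were not fitted, among them Cma1, whose male levels turned. With 62 immune cells in the second 12-month library and 2 residual degrees of freedom, small differences were not detectable at this depth.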
